A study of Homo sapiens with 6 samples.

Results

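The genes described here are 29 nuclear genes of oxidative phosphorylation, taken from a fixed list of Ensembl transcript IDs that pairs each ID with a gene. Their 29 IDs were all found among the 65527 probe sets of the study, with 1 probe set each. They comprise 9 genes named for complex I, all 4 subunits of complex II, 4 of complex III, 6 of complex IV, 5 of ATP synthase (complex V) and CYCS, the somatic cytochrome c.

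The study compared HepG2 cells, an established human liver tumour line, that received 24 mM boric acid for 24 hours with untreated HepG2 cells. Both were grown in low-glucose DMEM medium with sodium pyruvate, serum and antibiotics in HEPES buffer. Each condition has 3 samples, numbered 1 to 3, with total RNA hybridised to 1 Affymetrix whole-transcript gene array per sample. The labels call this boric acid level the half-maximal inhibitory concentration. Whether each sample was a culture of its own is not stated, so p-values here reflect variation between these samples only, and this variation may be technical. The liver identity of the cells was not checked here, because no table used here pairs other transcript IDs with gene names.

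Oxidative phosphorylation is the process by which mitochondria make most ATP in respiring cells. Complex I takes electrons from NADH and complex II takes them from succinate. Complex III passes the electrons on to cytochrome c and complex IV hands them to oxygen. Complexes I, III and IV pump protons across the inner membrane, and ATP synthase uses the returning protons to make ATP. Most subunits are encoded in the nucleus, made in the cytosol and imported, while a small core of hydrophobic subunits is encoded by mitochondrial DNA. The nuclear factors NRF1 and GABP are known to bind the promoters of many of the nuclear genes. In liver, this machinery supports energy-demanding work such as urea and glucose synthesis, and tumour lines such as HepG2 also rely on glycolysis.

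The values are log2 signals made by the authors with RMA, in which each array was brought to a common distribution, so every change is relative to the array as a whole. Signals of different probe sets are not compared with each other, since they also depend on probe affinity. The array medians lay between 6.84 and 6.88 for boric acid and between 6.89 and 6.92 for control, so every boric acid median was the lower. Only probe sets brighter than 6.89, the median over all values, on 3 or more arrays were tested. This signal filter kept 25 of the 29 members, all of which exceeded it on all 6 arrays. The 2 arrays numbered 1 stood apart from the others of their group. In 12 of the 25 tested members (48%) array 1 was the lowest of its group in both conditions, against 23.4% of all tested probe sets. With array 2 and array 3 this held for 1 member each (4%), against 10.8% and 9.13% of all. The median deviation of the tested members from their group mean was -0.062 on boric acid array 1 and -0.080 on control array 1, and between 0.025 and 0.050 on the other 4 arrays. The part of this pattern in the results was not tested, and several changes and medians are therefore also given with 1 array left out.

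The 3 genes that passed the test all have a promoter in the RefSeq table used here. Their sequences are shown because these genes moved in the same direction. Each line gives the 250 bases before the annotated start of the gene on GRCh38.p14, 5′ to 3′ on the strand of the gene, all 3 on the minus strand. Capitals mark matches, on either strand, to the NRF1 motif (GCGC, any base, then TGCGC) and to CCGGAAG, the motif of GABP and other ETS factors. The 2 motifs did not overlap in these sequences.
UQCRFS1, chr19:29213152-29213401: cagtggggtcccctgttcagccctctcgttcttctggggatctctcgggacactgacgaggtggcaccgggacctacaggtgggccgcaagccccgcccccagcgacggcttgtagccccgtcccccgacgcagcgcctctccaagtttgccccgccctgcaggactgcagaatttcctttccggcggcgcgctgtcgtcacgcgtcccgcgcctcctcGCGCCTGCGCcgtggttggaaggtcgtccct
UQCRC1, chr3:48609647-48609896: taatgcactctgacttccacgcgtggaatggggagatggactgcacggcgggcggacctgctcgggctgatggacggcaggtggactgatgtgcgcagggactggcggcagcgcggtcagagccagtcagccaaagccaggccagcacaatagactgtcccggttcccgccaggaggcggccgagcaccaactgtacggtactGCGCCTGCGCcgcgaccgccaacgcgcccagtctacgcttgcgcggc
SDHB, chr1:17054033-17054282: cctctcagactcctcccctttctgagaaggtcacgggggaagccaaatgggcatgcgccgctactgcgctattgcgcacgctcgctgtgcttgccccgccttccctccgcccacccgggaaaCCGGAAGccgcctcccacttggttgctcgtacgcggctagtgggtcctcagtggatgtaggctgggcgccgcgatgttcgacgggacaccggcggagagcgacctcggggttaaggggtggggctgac

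UQCRFS1 and UQCRC1 hold the same match to the NRF1 motif, GCGCCTGCGC, which ends 21 and 37 bases before the start. SDHB holds no match to it and 1 match to the GABP motif, 121 bases before the start. Promoters were listed for 24 of the 29 members. The NRF1 motif occurred in 7 of these 24 (29.2%), against 5.07% of all 35116 promoter windows of this length. The GABP motif occurred in 8 of 24 (33.3%), against 8.52% of all. Members were counted once per gene, but the background was counted by window. NDUFB8, NDUFS1 and ATP5F1A have 2 windows each, and NDUFS1 and ATP5F1A are among the 8 with a GABP match. Both motifs are rich in G and C. These bases make up 66.4% of the SDHB window, 67.2% for UQCRC1 and 69.2% for UQCRFS1, against a median of 58% over all windows. The part of base content in these shares was not tested. The motif matches describe the letters in a window and do not show binding. Besides UQCRFS1 and UQCRC1, the members with an NRF1 match were NDUFA9, SDHA, SDHD, ATP5F1C and ATP5PO. SDHD was below the signal filter, and the other 4 did not pass the test described next. Besides SDHB, the members with a GABP match were NDUFA1, NDUFS1, NDUFS3, SDHD, COX5B, COX6A1 and ATP5F1A. SDHD aside, these were tested and did not pass either.

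Most of the measured oxidative phosphorylation genes differed little between boric acid and untreated cells. Of the 25 that passed the signal filter, 3 rose in boric acid (12%), none fell at the threshold, and none reached a 2-fold change. The genes that rose were UQCRFS1 (ENST00000304863.5) by 1.72-fold, SDHB (ENST00000375499.7) by 1.39-fold and UQCRC1 (ENST00000203407.5) by 1.21-fold. They encode the Rieske iron-sulfur protein of complex III, the iron-sulfur subunit of complex II and a core protein of complex III. The arrays measure RNA of whole cultures, so a change in every cell and a larger one in some cells cannot be told apart. Across the whole array, 42.2% of the 33710 tested probe sets changed, 23% higher and 19.2% lower, and 7.45% changed at least 2-fold. A gene counts as changed if limma gave it an adjusted p under 0.05, by the Benjamini-Hochberg method over the 33710 probe sets tested. With no adjustment, 6 members were higher and 1 was lower at a p under 0.05, which is 24% and 4% of the members, against 28.2% and 23.3% of all tested probe sets. The count of 3 depended on the settings. UQCRC1 passed by a small margin, leaving out any 1 array gave 2 calls, and a variance model with a trend and robust settings gave 6. The share of all tested probe sets that changed was 30.2% to 41.8% without 1 array and 42.6% with that variance model.

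**Figure D1:**
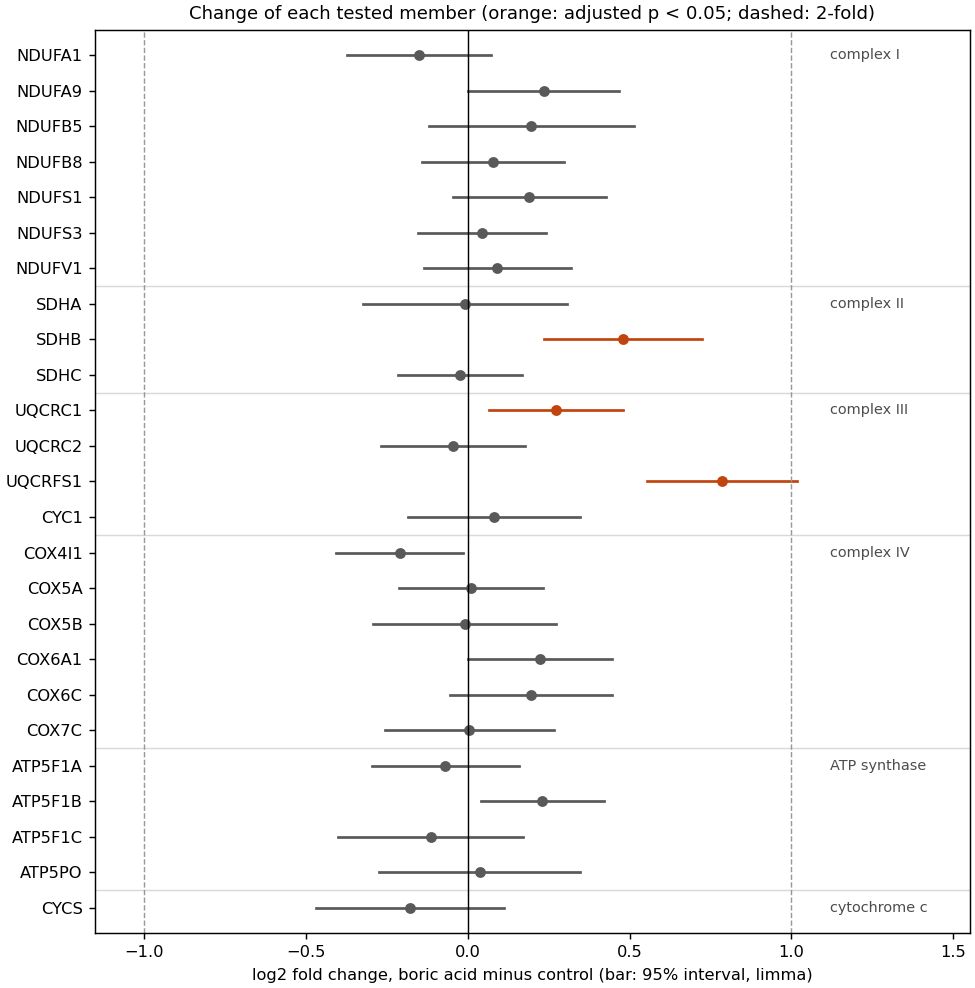
Log2 fold change of the 25 tested members, boric acid minus control, with the 95% interval from limma, in order of complex. Orange marks the 3 genes with an adjusted p below 0.05, dashed lines mark a 2-fold change, and only the interval of UQCRFS1 reaches past a dashed line.

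The changes were small in size. The median size of the log2 fold change, regardless of direction, was 0.11 over the 25 members and 0.31 over all tested probe sets. The size stayed under 0.25 in 22 members (88%), against 41.8% of all tested probe sets, and exceeded 0.5 in UQCRFS1 only (4%), against 30.6% of all. The signed median was 0.044 over the members and 0.024 over all tested probe sets. Of the members 16 were higher (64%) and 9 lower, against 52.5% higher among all tested probe sets. With cyclic loess scaling the signed median was -0.0012 over the members and -0.0080 over all tested probe sets. With arrays centred on their medians it was 0.085 over the members and 0.065 over all. Probe sets in the signal range of the members, from a mean of 7.41 to 12.09, gave the same background, with 42.2% changed and a median size of 0.31.

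The spread between arrays was not wider in these genes. The median SD of the members was 0.079 for boric acid arrays and 0.10 for control arrays, against 0.14 and 0.13 over all tested probe sets. Standard errors of the log2 fold change had a median of 0.099 in the members, against 0.12 in all. The intervals therefore limit the changes that could have been missed. The 95% interval lay within 2-fold in both directions for 24 of 25 members, all but UQCRFS1, against 80.3% of all tested probe sets. It lay within 1.5-fold for 23 members, all but UQCRFS1 and SDHB, against 45.9% of all. These intervals hold for 1 gene at a time, and a difference inside an interval may have been missed with 3 arrays per condition.

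**Figure D2:**
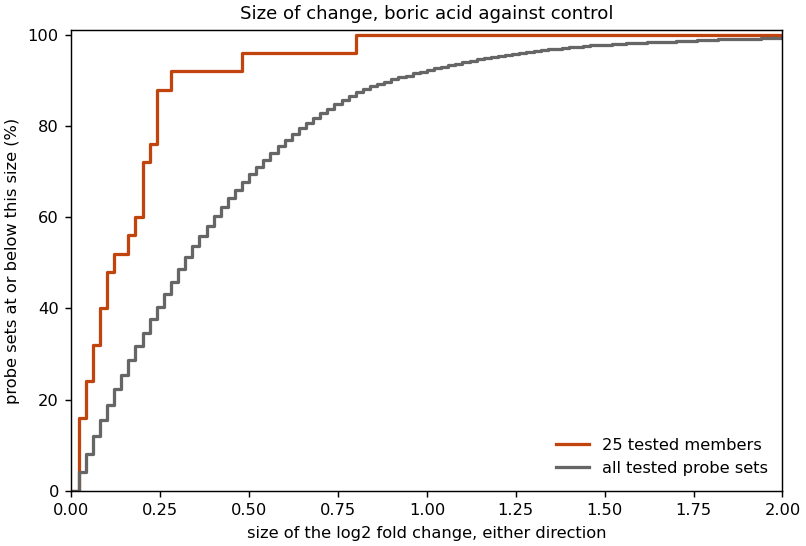
Cumulative share of probe sets, in percent, by the size of their log2 fold change in either direction, for the 25 tested members and for all 33710 tested probe sets. The curve of the members lies to the left, with 88% of them under 0.25 against 41.8% of all.

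Complex I, the NADH dehydrogenase, had 7 of the 9 genes described here tested, and none of them passed the test, with 6 means higher and 1 lower in boric acid. The largest change of these was that of NDUFA9, an accessory subunit beside the quinone site. Its log2 signal was 8.61, 8.54 and 8.64 on boric acid arrays 1, 2 and 3, against 8.32, 8.26 and 8.51 on the control arrays. All boric acid values lay above all control values, and array 2 was the lowest in both conditions. The log2 fold change was 0.24 with a standard error of 0.099, and it missed the threshold (limma, adjusted p = 0.094).

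The core subunits NDUFV1, NDUFS1 and NDUFS3 showed no call. NDUFV1, the flavoprotein that binds NADH, averaged 9.26 ± 0.12 in boric acid against 9.17 ± 0.05 in control cells (SD, n = 3 each). NDUFS1, the large iron-sulfur subunit, averaged 9.85 ± 0.08 in boric acid and 9.66 ± 0.12 in control cells. Its groups did not overlap, as in 9 of the 25 members (36%), against 56.4% of all tested probe sets, but it missed the threshold (limma, adjusted p = 0.17). Its log2 fold change was 0.19, and 0.12 without control array 1. NDUFS3, another core subunit, differed by 0.04, with a 95% interval of -0.15 to 0.24.

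The accessory subunits of complex I, which surround the core, had no call, with 3 means higher, NDUFA9 included, and 1 lower in boric acid. NDUFB5 averaged 8.95 ± 0.09 in boric acid against 8.75 ± 0.24 in control cells (SD, n = 3 each), with a log2 fold change of 0.20 that was 0.063 without control array 1 and 0.30 without control array 2. NDUFB8 averaged 8.60 ± 0.12 in boric acid and 8.52 ± 0.02 in control cells. NDUFA1 was the only tested complex I gene with a lower mean in boric acid, at 9.79 ± 0.08 against 9.94 ± 0.10 in control cells (limma, adjusted p = 0.24). The median log2 fold change of the 7 tested genes was 0.092. On each array, the median of their signals minus the control means was also taken, and its SD between arrays of a condition was 0.090. This SD is a spread between single arrays and not the error of the 0.092. Without boric acid array 1 the median log2 fold change was 0.15.

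Complex II, succinate dehydrogenase, is the only complex made wholly of nuclear-encoded subunits, and also works in the citric acid cycle. Of its 3 tested genes 1 rose. SDHB, which carries the iron-sulfur clusters, had log2 signals of 8.99, 9.23 and 9.08 on boric acid arrays 1, 2 and 3, against 8.50, 8.68 and 8.67 on the control arrays. Every boric acid array exceeded every control array, and the lowest boric acid value lay 0.31 above the highest control value. SDHB rose by 0.48 on the log2 scale with a standard error of 0.10 (limma, adjusted p = 0.0094). It passed the threshold in all 15 alternative settings, with changes from 0.41 to 0.53 and adjusted p-values from 0.0027 to 0.034.

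SDHA and SDHC, the other tested genes of complex II, did not pass the test. SDHA, the flavoprotein that oxidises succinate and the partner of SDHB, averaged 10.61 ± 0.19 in boric acid against 10.61 ± 0.17 in control cells (SD, n = 3 each). Its log2 fold change was -0.0075, with a 95% interval of -0.32 to 0.31, and array 1 was the lowest in both conditions. SDHC, a membrane anchor, averaged 7.70 ± 0.03 in boric acid and 7.72 ± 0.03 in control cells. The interval of its log2 fold change, -0.21 to 0.17, was the narrowest of the members. SDHD, the other anchor, was too dim to be tested with the rest and is described further on.

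Complex III, the cytochrome bc1 complex, contained 2 of the 3 genes that rose. All 4 of its listed genes were tested, with a median log2 fold change of 0.18. UQCRFS1, the Rieske protein that takes the first electron from ubiquinol, showed the largest change of all members. Its log2 signal was 7.71, 7.94 and 7.77 on boric acid arrays 1, 2 and 3, against 6.97, 7.10 and 6.99 on the control arrays. The groups were apart, by 0.61 between the lowest boric acid and the highest control value, and array 2 was the highest in both conditions. The log2 fold change was 0.79 with a standard error of 0.099 and a 95% interval of 0.55 to 1.02 (limma, adjusted p = 0.0014). It held in all 14 alternative settings that tested it, with changes from 0.72 to 0.83. The filter at the 75th percentile of the table left it out.

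UQCRC1, a core protein of the matrix side of the complex, had log2 signals of 9.10, 8.99 and 9.02 on boric acid arrays 1, 2 and 3, against 8.68, 8.81 and 8.79 on the control arrays. The groups did not overlap, and array 1 was the highest of the boric acid arrays but the lowest of the control arrays. UQCRC1 rose by 0.27 on the log2 scale with a standard error of 0.088 (limma, adjusted p = 0.042). With the replicate number as a block the adjusted p was 0.057, and it passed in 5 of 15 alternative settings, with adjusted p-values from 0.028 to 0.11. UQCRC2, the second core protein, averaged 11.07 ± 0.05 in boric acid against 11.11 ± 0.11 in control cells (SD, n = 3 each), and its interval was -0.27 to 0.18. CYC1, the cytochrome subunit that passes electrons to cytochrome c, averaged 9.31 ± 0.05 in boric acid and 9.23 ± 0.18 in control cells (interval -0.18 to 0.35).

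**Figure D3:**
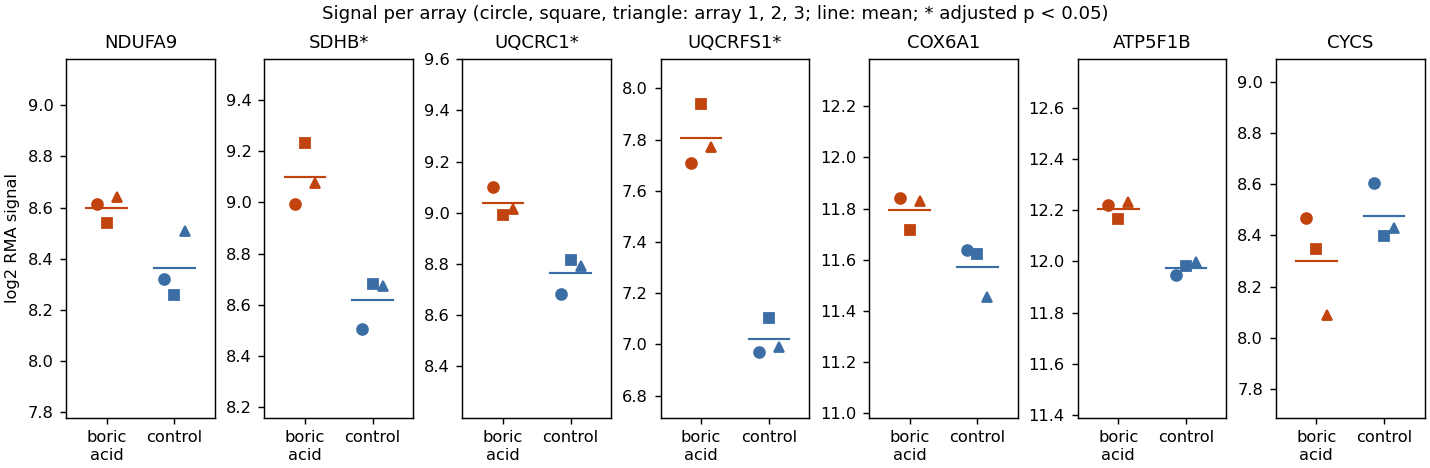
Log2 RMA signal on each array for the 3 genes that rose (marked with an asterisk) and for the gene with the largest change of complex I, complex IV, ATP synthase and cytochrome c. Symbols are arrays 1 to 3 of boric acid (left of each panel) and control (right), lines are means, and every panel spans the same range of log2 signal. The boric acid arrays of UQCRFS1, at 7.71 to 7.94, lie well above its control arrays, at 6.97 to 7.10, while those of CYCS overlap.

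Cytochrome c, the small carrier between complexes III and IV that also triggers caspase activation when it leaves mitochondria, gave no call. CYCS had log2 signals of 8.47, 8.35 and 8.09 on boric acid arrays 1, 2 and 3, against 8.61, 8.40 and 8.43 on the control arrays. The groups overlapped, and boric acid array 3 was the lowest of the 6. The log2 fold change was -0.18 with a standard error of 0.12 (limma, adjusted p = 0.29). It was -0.071 without boric acid array 3, -0.11 without control array 1 and -0.26 without boric acid array 1.

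Complex IV, cytochrome c oxidase, had no call among its 6 tested genes, and their median log2 fold change was 0.0078. That median changed sign between settings, with -0.033 under cyclic loess scaling and -0.029 (without control array 1) to 0.073 (without control array 2) when 1 array was left out. These nuclear subunits surround the catalytic core encoded by mitochondrial DNA. The largest change was that of COX6A1, a small subunit of the non-muscle form of the enzyme. Its log2 signal was 11.84, 11.72 and 11.83 on boric acid arrays 1, 2 and 3, against 11.64, 11.62 and 11.46 on the control arrays. The groups did not overlap, but the log2 fold change of 0.22 (standard error 0.095) missed the threshold (limma, adjusted p = 0.096).

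COX4I1, a subunit tied to the regulation of the enzyme by ATP, was the only member lower in boric acid at an unadjusted p under 0.05. It averaged 10.89 ± 0.05 in boric acid against 11.10 ± 0.04 in control cells (SD, n = 3 each), with no overlap, a log2 fold change of -0.21 and an adjusted p of 0.080 in limma's test. With cyclic loess scaling its adjusted p was 0.049, and the calls were then 2 higher and 1 lower. COX6C averaged 10.28 ± 0.04 in boric acid and 10.08 ± 0.16 in control cells, without overlap and without a call. Its log2 fold change was 0.20, and 0.11 without control array 1. COX5A, COX5B and COX7C had log2 fold changes of 0.010, -0.0094 and 0.0055, with intervals that stayed within -0.29 and 0.27.

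ATP synthase, complex V, had no call among its 4 tested genes, whose median log2 fold change was -0.015. The sign of that median also varied, at -0.082 without control array 1 but 0.069 when boric acid array 1 was left out. ATP5F1B, the catalytic beta subunit, came nearest. Its log2 signal was 12.222, 12.165 and 12.232 on boric acid arrays 1, 2 and 3, against 11.946, 11.981 and 11.997 on the control arrays. The groups did not overlap and each was tight, with SDs of 0.036 in boric acid and 0.026 in control cells. The log2 fold change was 0.23 with a standard error of 0.082 (limma, adjusted p = 0.055). It passed the threshold in 4 of 15 alternative settings, with adjusted p-values in limma's test from 0.0099 to 0.19. Its log2 fold change ranged from 0.15 with quantile normalization repeated to 0.27 with arrays centred on their medians.

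The alpha subunit ATP5F1A, which alternates with beta in the catalytic head, averaged 10.54 ± 0.08 in boric acid against 10.61 ± 0.10 in control cells (SD, n = 3 each; interval -0.30 to 0.16). ATP5F1C, the gamma subunit that forms the rotating shaft, averaged 11.14 ± 0.17 in boric acid and 11.25 ± 0.14 in control cells (interval -0.40 to 0.17). Its log2 fold change was -0.11, and became -0.19 without control array 1 and -0.020 when boric acid array 1 was left out. ATP5PO, a part of the stalk that holds the head still, averaged 10.56 ± 0.21 in boric acid and 10.52 ± 0.13 in control cells (interval -0.27 to 0.35). The differences of these 3 genes were smaller than the spread between the arrays of a condition.

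The remaining 4 members had a signal below the filter on all 6 arrays, and were tested only when all 65527 probe sets were fitted together. In that fit 24.1% of probe sets and 3 of the 29 members (10.3%) changed. These members were SDHB, UQCRFS1 and ATP5PB, while UQCRC1 missed the threshold there (limma, adjusted p = 0.054). ATP5PB, a stalk subunit of ATP synthase, had log2 signals of 6.17, 6.07 and 6.07 on boric acid arrays 1, 2 and 3, against 5.82, 5.65 and 5.79 on the control arrays. The groups did not overlap, and it rose by 0.35 on the log2 scale in that fit (limma, adjusted p = 0.025). SDHD, the second membrane anchor of complex II, averaged 6.23 ± 0.07 in boric acid against 6.04 ± 0.16 in control cells (SD, n = 3 each; limma, adjusted p = 0.25). NDUFA4, which RefSeq lists as COXFA4 and which is now known as a subunit of complex IV, averaged 6.42 ± 0.07 in boric acid and 6.52 ± 0.18 in control cells. NDUFV2, an iron-sulfur subunit of complex I, varied more with array number than with treatment, with 4.55, 6.11 and 5.20 on boric acid arrays 1, 2 and 3, against 4.78, 6.11 and 5.05 on the control arrays. Its interval in that fit, which has no replicate block, was -1.11 to 1.06, while the differences between same-numbered arrays, boric acid minus control, were -0.23, 0.0035 and 0.16.

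**Figure D4:**
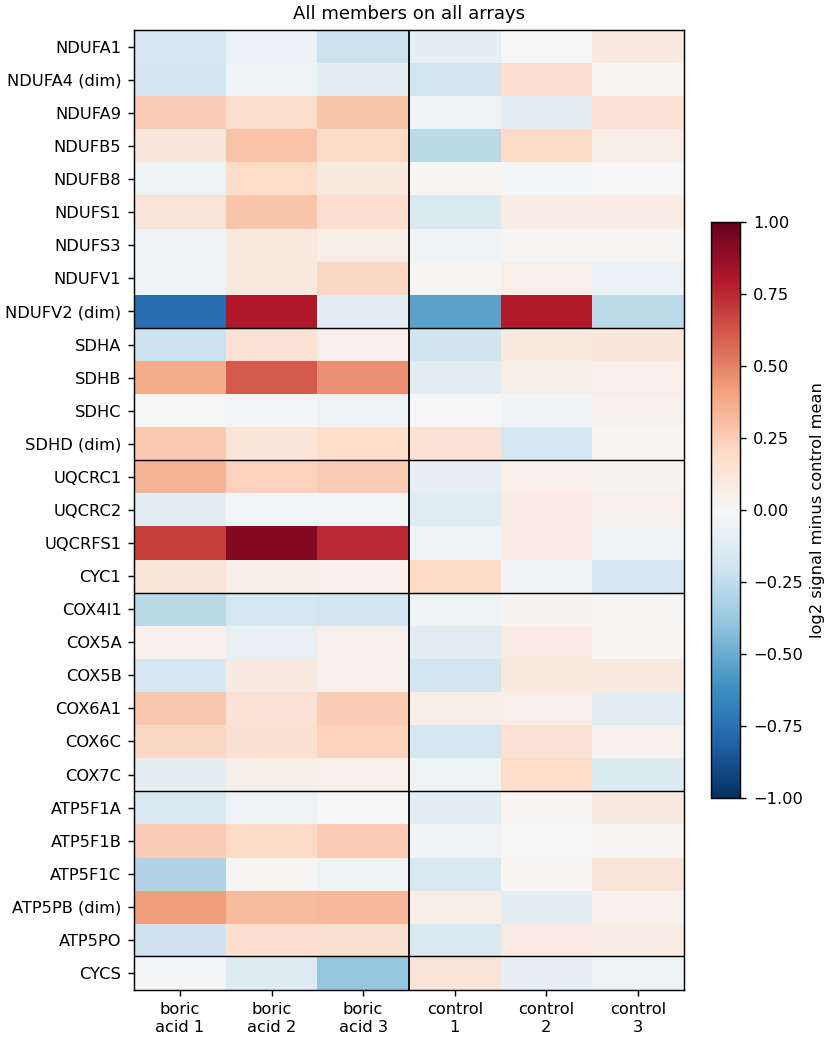
Log2 signal of all 29 members minus their control mean, one column per array (boric acid 1 to 3, then control 1 to 3) and one row per gene, with lines between complexes. UQCRFS1 and SDHB are raised on all 3 boric acid arrays, NDUFV2 follows the array number in both conditions, and dim genes are those below the signal filter.

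SDHB and UQCRFS1 passed the threshold without either array numbered 1, and without each of the other 4 arrays. UQCRC1 lost its call whichever array was left out, with an adjusted p in limma's test of 0.079 to 0.11. Without boric acid array 1 the median log2 fold change of the 25 members was 0.097, without control array 1 it was 0.029, and without boric acid array 2 it was 0.027, against 0.044 with all arrays. It was also 0.069 without control array 2. SDHA had a log2 fold change of 0.097 without boric acid array 1, against -0.0075 with all arrays, and passed in neither case.

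Whether the probes tell these genes from their pseudogenes was not tested, and the sequences were not compared. RefSeq names pseudogenes after 23 of the 29 members, with 45 for CYCS, 18 for COX6C and 8 each for COX5B and ATP5PB. UQCRFS1 has 3 and SDHB has 1, while UQCRC1 has none. The values of NDUFB5 and NDUFV2 are also repeated exactly in other rows of the table, as happens where transcripts share all their probes, and the other 27 members have values of their own. Other subunits, assembly factors and regulators of mitochondrial biogenesis were not analysed here.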

How the data were processed

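Total RNA of 3 boric acid and 3 untreated HepG2 samples was measured on 1 array each. The deposited table holds log2 signals made by the authors with RMA, per the submitters' processing notes, and the log2 scale was taken from the values (2.56 to 13.78). Probe set definitions, annotation release and build were not given in the sources used here. Scanner files were not used here.

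A probe set was tested if its signal exceeded the table median (6.89) on at least 3 of 6 arrays, and 33710 (51.4%) passed. The 25 members that passed did so on all 6 arrays. Of the listed genes, 1 is not reported here. Boric acid was compared with control in limma 3.58.1 (R 4.3.3; lmFit, eBayes, no covariate, two-sided, threshold 0.05 after Benjamini-Hochberg adjustment). The fit was tested on simulated data. The number of arrays limits the precision.

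Same-numbered arrays deviated together from their group means (correlations 0.48, 0.17 and 0.20, each over the limit of 0.1). A fit with the replicate number as a block was therefore made as an alternative. The main fit, with its calls and intervals, is unpaired. This pairing comes from the data, not the labels. The 15 alternatives also varied the filter, scaling, variance model, array weights, repeated rows and arrays.

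Members and lists were chosen with earlier results of these data known, and the motifs after the values had been seen. Values by array are given, by rule, for members past the threshold and the largest change of each complex, and for ATP5PB and NDUFV2, chosen after their values were seen. Gene names come from the member list and promoters from RefSeq (GRCh38.p14). Other pathway genes and cell type markers were not analysed here, as no table used pairs their transcript IDs with names.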

Additional observations from a re-analysis of the deposited data

How the results depend on the processing

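SDHB and UQCRFS1 passed the threshold in every one of the 15 alternatives that tested them, and UQCRC1 in 5 of 15. Called members numbered 3 of 25 in the main analysis, where 42.2% of all tested probe sets changed. A trend and robust variances gave 6 (5 higher, 1 lower, COX4I1), with 42.6% of all. Leaving out each 1 array in turn gave 2, both higher, with 30.2% to 41.8% of all. Cyclic loess called 2 higher and 1 lower, with 41.4% of all. Arrays centred on their medians gave 4, all higher, with 43.8% of all. The replicate block took the call of UQCRC1 and no other (limma, adjusted p 0.057), leaving 2, with 48.1% of all. The median over the members was -0.0012 with cyclic loess and 0.027 (without boric acid array 2) to 0.097 (without boric acid array 1) in the other alternatives, with no filter 0.044. The complex II median of -0.0075 became 0.091 with no filter, since SDHD then counts, 0.24 with the filter at the 75th percentile, since SDHC then drops out, and -0.027 to 0.097 without 1 array at a time. That filter also gave a complex III median of 0.081, against 0.18 in the main analysis, since it leaves out UQCRFS1. With it 8194 probe sets changed among 17458 (4579 higher, 3615 lower). With NDUFA4 moved to complex IV and no filter, chosen after seeing the data, the medians were 0.085 for complex I and 0.0055 for complex IV.

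No change that turned direction passed the threshold in any setting. They were COX7C (-0.013) with repeated quantile normalization, and SDHA (0.034), SDHC (0.018) and COX5B (0.032) with centred arrays. With cyclic loess they were NDUFS3 (-0.0026), COX5A (-0.034), COX7C (-0.032) and ATP5PO (-0.0012), and with array weights SDHA (0.029), COX5A (-0.033) and COX5B (0.0099). Without 1 array at a time, SDHA ranged from -0.11 to 0.097, CYC1 from -0.0023 to 0.18, COX5A from -0.042 to 0.053, COX5B from -0.10 to 0.070, COX7C from -0.063 to 0.096 and ATP5PO from -0.040 to 0.16. Except where stated, the cause was not tested. Signal limits the rest, since 4 of the 29 members were below the filter on all arrays.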

Other observations

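The 4 dim members and the shared pattern of array numbers give values outside the main comparison. The differences between same-numbered arrays, boric acid minus control, were positive in all 3 pairs for ATP5PB (0.35, 0.42 and 0.29) and SDHD (0.12, 0.28 and 0.17), both below the signal filter. For UQCRFS1 they were 0.74, 0.84 and 0.78, and for SDHB 0.49, 0.55 and 0.40. COX4I1, which did not pass the test, was lower in boric acid in all 3 pairs, by differences of -0.22, -0.20 and -0.20. For CYCS they were -0.14, -0.05 and -0.34. Other members also had the same sign in all 3 pairs. NDUFA1, ATP5F1A and ATP5F1C were also lower in all 3, and NDUFA9, NDUFB5, NDUFS1 and UQCRC1 were among those higher in all 3. The share of all tested probe sets with such agreement was not counted. It cannot be below 56.4%, the share whose groups did not overlap, since such groups always have the same sign in all 3 pairs.

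Over the 25 tested members, the median absolute difference between 2 arrays was 0.081 for boric acid arrays 2 and 3 and 0.059 for control arrays 2 and 3. Between 2 arrays of the same condition it ranged from 0.059 to 0.18. Between a boric acid and a control array it ranged from 0.086, for the 2 arrays numbered 2, to 0.22, so the 2 ranges overlapped. Over all tested probe sets they did not, with 0.10 to 0.20 within a condition and 0.30 to 0.41 between the conditions. This is a description of these arrays, with no test.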
